A study of Mus musculus with 2 samples.

Results

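GATA3 binding was examined at the genes of IL-4 signalling: Il4ra with its neighbour Il21r, Stat6, and the adjacent pair Stat5b and Stat5a. The 5 genes were taken as 3 windows of fixed mm9 position, 360 kb in all, and every GATA3 site with its midpoint in a window was kept, 32 of 66025 sites in the genome. The Il4ra-Il21r window (chr7:132660000-132800000) held 13 sites, the Stat6 window (chr10:127050000-127120000) held 8 and the Stat5b-Stat5a window (chr11:100620000-100770000) held 11. The gene names belong to the definition of the windows. No mm9 annotation was used here, so the names were not checked against gene positions and no site was assigned to a promoter, intron or exon. Sites are numbered by position within each window.

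The data are 1 chromatin immunoprecipitation library with a GATA3 antibody for each of 2 labelled conditions, made from naive CD4+CD25–CD62L+ T cells of C57BL/6 mice. One library is labelled TGF-β +IL-4, and the treatment entry of the other reads NA. The protocol, shared by both, describes plate-bound anti-CD3 and soluble anti-CD28 at 1 µg/ml each and TGF-β1 at 2 ng/ml, with IL-4 at 10 ng/ml or without it, so the labels do not settle whether the second library comes from cells given TGF-β1 alone or from untreated cells. The first is called the IL-4 library and the second the NA library. Nothing in the labels says how many mice were pooled. The libraries held 22963959 reads (NA) and 15561681 reads (IL-4), of which 9595 and 6805 lay in the 3 windows. With 1 library per condition no difference has a replicate check, no test between conditions was made, and all intervals below cover counting error only.

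IL-4 binds the IL-4 receptor α chain, encoded by Il4ra, which pairs with the common γ chain and activates Janus kinases. These phosphorylate STAT6, which enters the nucleus and activates Th2 genes, among them Gata3 and Il4ra itself. GATA3 is the zinc-finger factor that directs Th2 differentiation and binds DNA at the core letters GATA. Il21r encodes the receptor of IL-21, another cytokine that signals through the common γ chain. Stat5a and Stat5b encode 2 closely related factors that carry the IL-2 and IL-7 signals and take part in Th2 and Th9 differentiation. In the RefSeq table of GRCm38 the genes run in the order Nsmce1, Il4ra, Il21r, Gtf3c1 on chromosome 7, Lrp1, Stat6, Nab2 on chromosome 10, and Ghdc, Stat5b, Stat5a, Stat3 on chromosome 11.

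The promoters of the members are shown for orientation in the sequence that RefSeq places before each gene's start, since sequence under the mm9 sites was not read. The 250 bases before the start are given in the direction of the gene, with the letters GATA, or TATC where they lie on the opposite strand, in capitals. Positions are those of GRCm38.p6 and cannot be set beside the mm9 positions of the sites.
Il4ra chr7:125552021-125552270 (+ strand): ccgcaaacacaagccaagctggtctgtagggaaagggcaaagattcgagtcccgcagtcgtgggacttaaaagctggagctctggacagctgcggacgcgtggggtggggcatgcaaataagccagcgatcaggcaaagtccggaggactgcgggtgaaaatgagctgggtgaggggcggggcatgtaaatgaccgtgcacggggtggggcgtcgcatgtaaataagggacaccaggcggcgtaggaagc
Il21r chr7:125603179-125603428 (+ strand): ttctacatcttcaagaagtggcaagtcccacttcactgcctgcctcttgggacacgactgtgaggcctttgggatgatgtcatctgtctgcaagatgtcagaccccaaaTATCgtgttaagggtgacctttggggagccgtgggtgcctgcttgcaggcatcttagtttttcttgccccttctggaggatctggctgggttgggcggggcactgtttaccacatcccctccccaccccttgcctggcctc
Stat6 chr10:127642736-127642985 (+ strand): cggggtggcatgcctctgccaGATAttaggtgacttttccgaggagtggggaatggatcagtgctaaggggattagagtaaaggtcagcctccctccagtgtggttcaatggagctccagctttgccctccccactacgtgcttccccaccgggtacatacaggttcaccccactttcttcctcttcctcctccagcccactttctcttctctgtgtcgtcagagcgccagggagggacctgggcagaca
Stat5a chr11:100860234-100860483 (+ strand): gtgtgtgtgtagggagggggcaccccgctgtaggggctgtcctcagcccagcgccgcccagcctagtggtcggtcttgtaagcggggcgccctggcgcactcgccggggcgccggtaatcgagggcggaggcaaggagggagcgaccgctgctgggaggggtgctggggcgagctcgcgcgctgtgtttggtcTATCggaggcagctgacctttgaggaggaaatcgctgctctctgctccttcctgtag
RefSeq lists 7 such promoters for the 5 genes. GATA occurred on either strand in 3 of them, once each, beside 53.6% of all 32851 promoters in the table. In the Il21r promoter it ended 137 bases before the start, in the Stat6 promoter 225 bases and in this Stat5a promoter 53 bases. The printed Il4ra promoter, the other Stat5a promoter and both Stat5b promoters held none. The longer form of 6 letters, with A or T before GATA and A or G after it, searched on both strands, occurred in 0 of the 7, beside 26.5% of all promoters. Such matches describe letters, not binding.

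The windows held many GATA3 sites for their length, and most sites were of middling strength. The Il4ra-Il21r window had 9.29 sites per 100 kb, Stat6 11.4 and Stat5b-Stat5a 7.33, while the genome had 2.79 per 100 kb of covered sequence. Of all genome tiles as long as the window, 5.14% held at least as many sites as the Il4ra-Il21r window, 4.04% as many as Stat6 and 10.5% as many as Stat5b-Stat5a. The Stat6 density rested on weak sites: at a stricter q of 1e-05, where q is the adjusted p of a site against its own surroundings, the window held 1 site and 36.8% of tiles had at least as many. By RPM, reads per 1000000 reads of the library, averaged over both libraries, the median site of the windows was at 1.26, against 0.809 for all sites, and 22 of 32 sites exceeded more than 50% of all sites. The sites were narrow, 100 to 460 bp wide with a median of 175 bp, and neighbouring summits lay a median of 8090 bp apart. Of the 32 sites, 13 (40.6%) were called in both libraries, beside 38.9% of all sites, 14 in the IL-4 library alone, beside 45.4%, and 5 in the NA library alone, beside 15.8%.

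**Figure D1:**
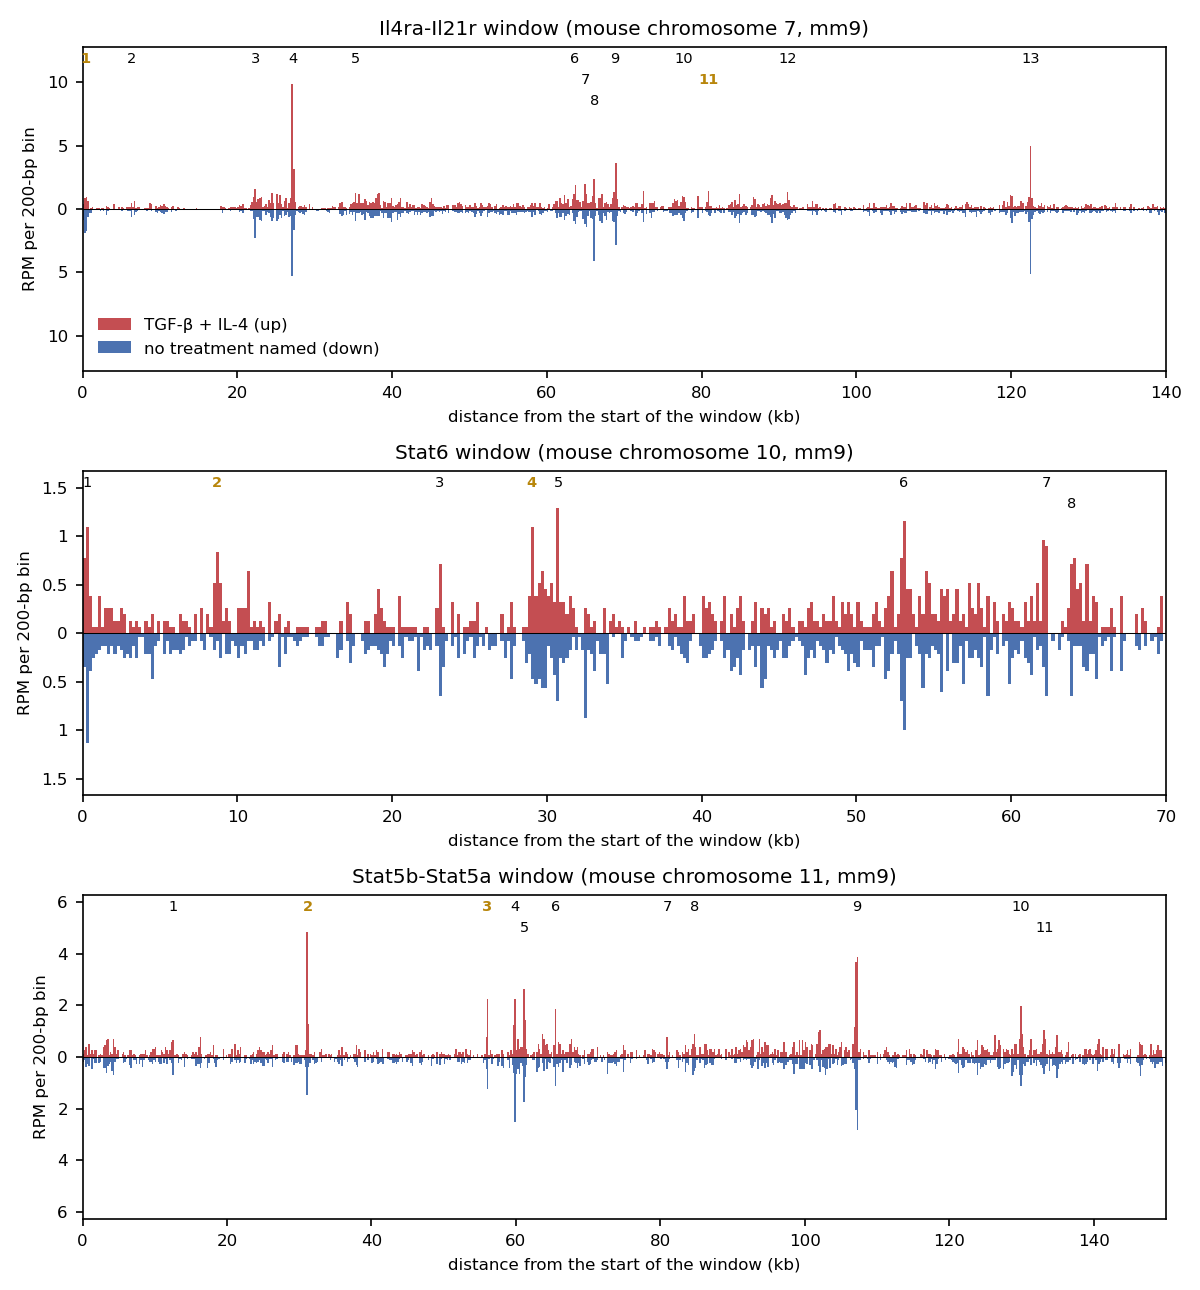
RPM in 200-bp bins along the 3 windows, with the IL-4 library (TGF-β + IL-4 in the legend) drawn upward and the NA library (no treatment named) downward, against the distance from the start of each window in kb. Numbers mark the sites, in gold and bold where the ratio passed the size rule. The vertical scales differ: the Stat6 window holds no bin as tall as the strongest sites of the other windows.

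The strongest site of all 5 genes lay in the Il4ra-Il21r window. Site 4 (chr7:132687011-132687390) held 156 reads (6.79 RPM) in the NA library and 201 reads (12.9 RPM) in the IL-4 library, more than 98.2% of all sites by mean RPM. Its ratio, IL-4 over NA, was 1.90 with an exact 95% interval of 1.53 to 2.36. This ratio was above that of 61.5% of all sites. Scaled to a ratio of 1 at the median site called in both libraries, site 4 was at 1.43 (1.15 to 1.77). At equal depth its summit was covered by 74 and 144 fragments, 15.4-fold and 23.3-fold the expected coverage. Both strands took part, with 77 plus-strand and 79 minus-strand reads in one library and 93 and 108 in the other. Reads within 5 kb of the site but outside sites were at a ratio of 0.992 (0.842 to 1.17).

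The other strong sites of the same window had lower ratios, not all of them beyond counting error. Site 13 (chr7:132782361-132782640), its second strongest, held 132 reads (5.75 RPM) and 87 reads (5.59 RPM), a ratio of 0.973 (0.733 to 1.28). Scaled to the median site called in both libraries, site 13 was at 0.730 (0.550 to 0.964). Site 8 (chr7:132725991-132726190) held 98 reads (4.27 RPM) in the NA library and 40 reads (2.57 RPM) in the IL-4 library, a ratio of 0.602 (0.406 to 0.878). Site 9 (chr7:132728731-132728960), whose summit lay 2720 bp beyond that of site 8, held 78 reads (3.40 RPM) and 75 reads (4.82 RPM), a ratio of 1.42 (1.02 to 1.97). Sites 6 to 9 formed a cluster with summits 1330, 1160 and 2720 bp apart. Within it, the IL-4 library was lower at 1 site and higher at its neighbour, with intervals that do not meet; when calling and counting used separate reads, the intervals of both included 1.

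These contrasts between sites of 1 window do not depend on how the libraries are scaled, because a common factor cancels in the ratio of the ratios. This comparison, over the 5 strongest sites of each window and 30 pairs, was chosen after the values were seen. The ratio at site 4 was 3.16 times that at site 8 (exact conditional 95% interval 2.03 to 4.95) and 1.95 times that at site 13 (1.37 to 2.79). Site 9 could not be told from site 4, whose ratio was 1.34 times as high (0.900 to 1.99). The ratio at site 9 was 2.36 times that at site 8 (1.41 to 3.95, and 1.06 to 5.35 after widening over all 30 pairs). Of the 10 pairs in the Il4ra-Il21r window, the interval left out 1 for 6, and for 5 after widening over all 30 pairs. Of the Stat5b-Stat5a pairs it did so for 4 and 2, and of the Stat6 pairs for 0.

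**Figure D2:**
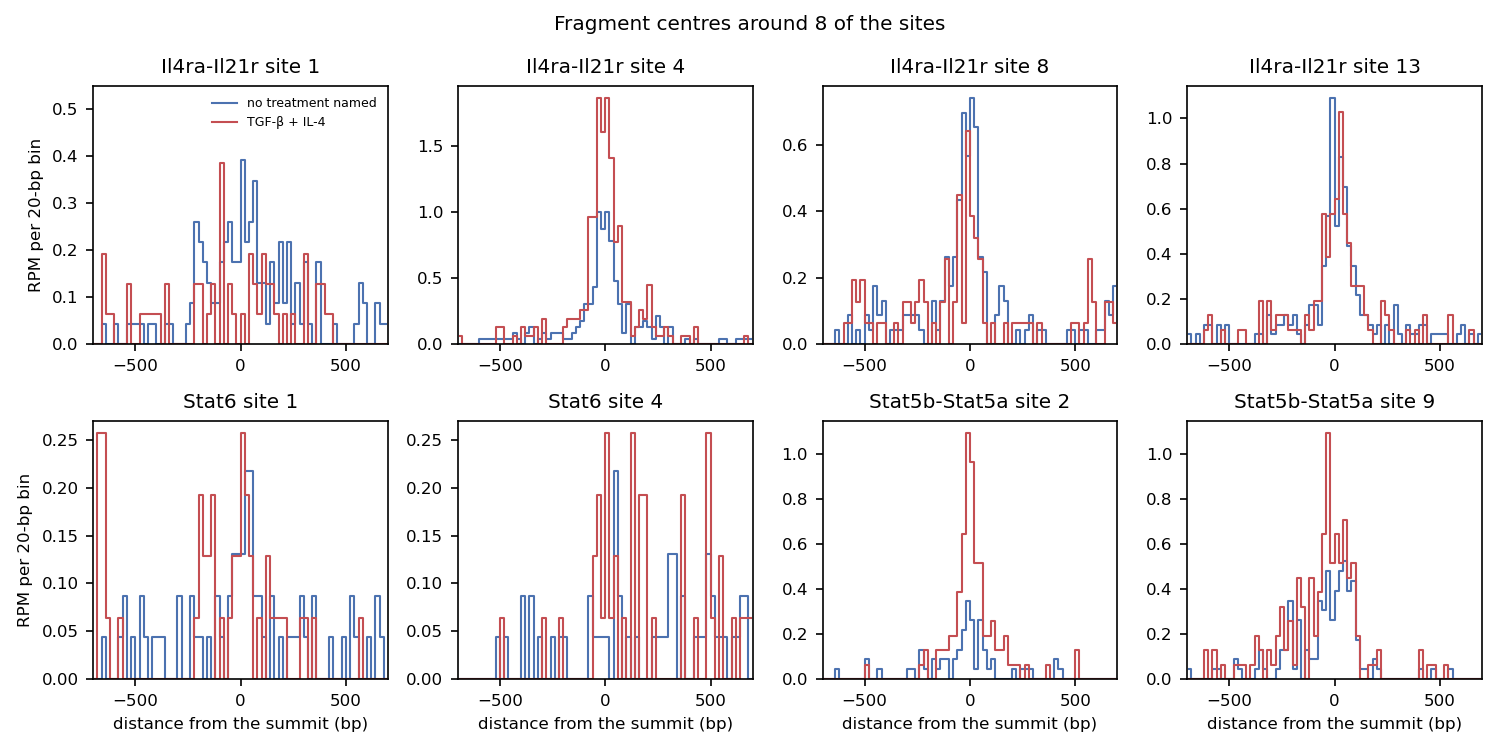
Fragment centres in RPM per 20-bp bin against the distance from the summit in bp, at 8 sites, for the IL-4 library (red) and the NA library (blue). Il4ra-Il21r site 4 and Stat5b-Stat5a site 2 are taller in the IL-4 library. Il4ra-Il21r site 13 is alike in both by RPM, and site 8 holds fewer reads in the IL-4 library. Il4ra-Il21r site 1 and the 2 Stat6 sites have no single sharp summit. Vertical scales differ between panels.

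The size rule asked for a ratio of 2 or more (higher) or of 0.5 or less (lower), with an interval that left out 1. By that rule 5 of the 32 sites (15.6%) were higher in the IL-4 library, beside 25.3% of all sites in the genome, and 1 (3.12%) was lower, beside 3.76%. Among the 13 sites called in both libraries 1 was higher and 0 lower, beside 12.8% and 1.31%. The ratio was over 1 at 25 of 32 sites (78.1%), beside 75.2% of all sites, and the median log2 ratio was 0.56, beside 0.68. The interval lay wholly over 1 at 10 sites (31.2%), beside 34.1%, and wholly under 1 at 2 (6.25%), beside 4.54%. None of these shares sets the windows apart from the genome. Scaling the libraries so that the median shared site has a ratio of 1 lowers every log2 ratio by 0.41, and 3 sites were then higher and 2 lower.

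**Figure D3:**
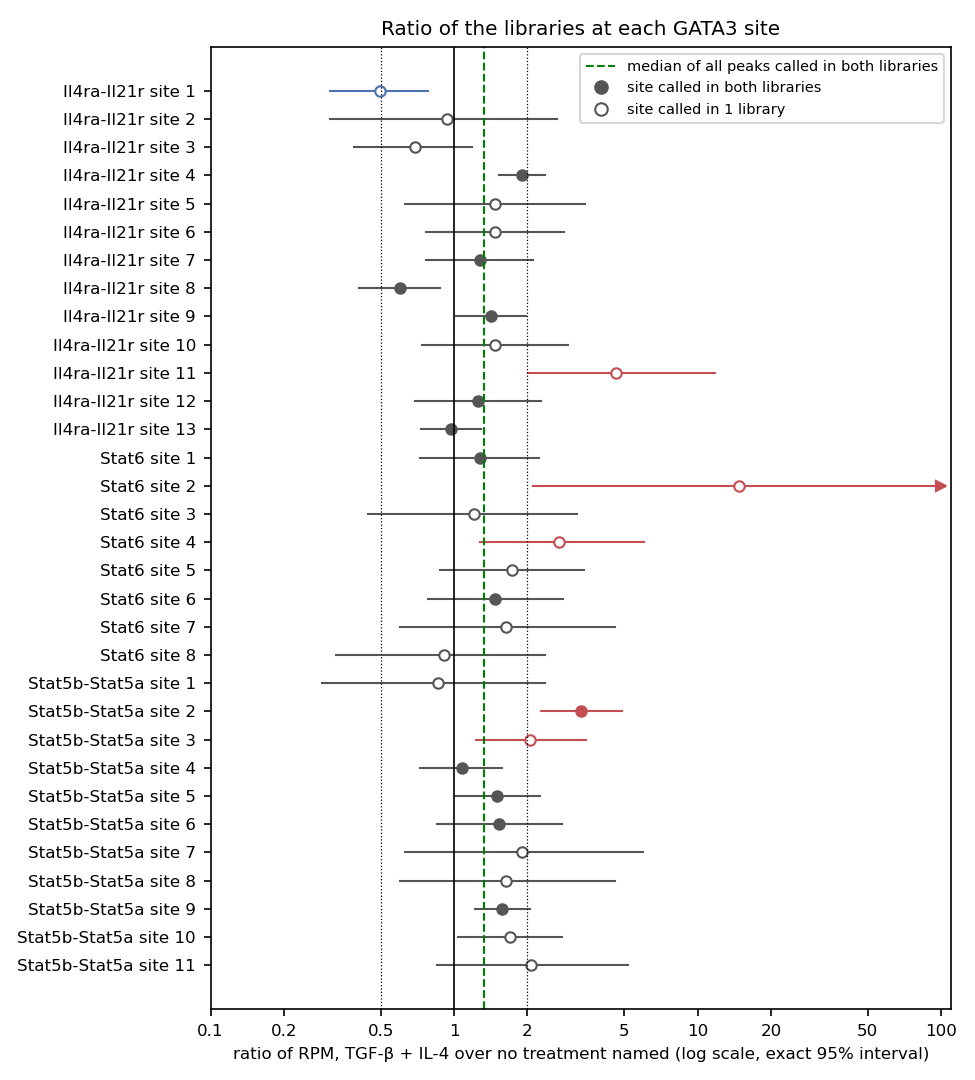
Ratio of RPM (IL-4 over NA, log axis) at each of the 32 sites with exact 95% intervals. Filled points were called in both libraries and open points in 1, red and blue mark sites past the size rule (dotted lines at 0.5 and 2), and the dashed line is the median of all sites called in both libraries, 1.33. The arrow marks an interval that runs past the axis.

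In the Il4ra-Il21r window the remaining sites past the rule were 1 on each side. Site 1 (chr7:132660141-132660490), at the edge of the window, held 80 reads (3.48 RPM) in the NA library and 27 reads (1.74 RPM) in the IL-4 library, a ratio of 0.498 (0.309 to 0.779). It lies on the bound of the rule, and 4 of the 15 alternatives that measured it took it past that bound, to at most 0.521. Its reads were spread over several small summits, and the median distance between its strands was 42.5 bp in the NA library, where the fragment length was 125 bp. Site 11 (chr7:132740781-132740950) held 8 reads (0.348 RPM) and 25 reads (1.61 RPM), a ratio of 4.61 (2.02 to 11.8). Its ratio stayed over 2 under all 14 alternatives that measured it, from 3.28 to 15.6, and every interval recomputed lay over 1. The highest ratio was that with the surrounding reads subtracted, for which no interval was computed. The 7 sites not yet described ranged from 11 to 45 reads in one library and from 7 to 32 in the other. Their ratios ran from 0.689 at site 3 to 1.48 at sites 5, 6 and 10, each with an interval that included 1.

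Between the sites, the Il4ra-Il21r window carried unusually many reads in both libraries. Cut into 14 tiles of 10 kb, with reads in sites left out, 9 tiles held more reads in the NA library, and 8 in the IL-4 library, than 99% of all such tiles of the genome. The fullest, from 132720001, had 488 reads (21.3 RPM) and 369 reads (23.7 RPM), while the emptiest, from 132670001, had 68 and 56. In the Stat6 window 1 of 7 tiles and in the Stat5b-Stat5a window 4 of 15 passed the same mark in either library. Input or control antibody libraries were not used here, so background and weak binding cannot be told apart in these reads. They also made up most of each window: sites held 15.2% and 18.0% of the Il4ra-Il21r reads, 7.97% and 13.2% of the Stat6 reads and 11.9% and 18.2% of the Stat5b-Stat5a reads, the NA library first.

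Over whole windows the libraries were close. The Il4ra-Il21r window held 4764 reads (207 RPM) and 3289 reads (211 RPM), a ratio of 1.02 (0.974 to 1.07). Its sites together, 2620 bp, had a ratio of 1.20 (1.08 to 1.34), and the rest of the window 0.986 (0.938 to 1.04). In the Stat6 window, with 1455 and 971 reads, the ratio was 0.985 (0.907 to 1.07), with 1.63 (1.26 to 2.11) in 1360 bp of sites and 0.929 (0.851 to 1.01) outside. The Stat5b-Stat5a window, with 3376 and 2545 reads, had a ratio of 1.11 (1.06 to 1.17), with 1.70 (1.48 to 1.95) in 2370 bp of sites and 1.03 (0.976 to 1.09) outside. Over the whole genome, all sites together held 8.57% of the NA reads and 12.7% of the IL-4 reads. Sites were chosen in part on the same reads and more of them in the IL-4 library, which favours ratios over 1 inside them, so the ratios inside and outside sites are not a fair comparison. Scaled to the median shared site, the windows had ratios of 0.764 (Il4ra-Il21r), 0.739 (Stat6) and 0.835 (Stat5b-Stat5a), so the direction over whole windows depends on the scaling.

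The Stat6 window held no site as strong as the leading sites of the other windows. Its strongest, site 1 (chr10:127050071-127050360), exceeded 72.01% of all sites by mean RPM. It had 30 reads (1.31 RPM) and 26 reads (1.67 RPM), a ratio of 1.28 (0.727 to 2.24). Site 6 (chr10:127102941-127103120) had 22 reads in each library (0.958 and 1.41 RPM), a ratio of 1.48 (0.779 to 2.79), and site 5 (chr10:127080671-127080850) had 18 and 21, a ratio of 1.72 (0.873 to 3.43). The intervals of all 3 include both 1 and 2, so they leave out neither equal levels nor a 2-fold difference. Site 8 (chr10:127113881-127113980), called in the NA library alone, had 13 and 8 reads, a ratio of 0.908 (0.326 to 2.36).

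The Stat6 sites past the rule rested on few reads. Site 4 (chr10:127078961-127079210) had 12 reads (0.523 RPM) in the NA library and 22 reads (1.41 RPM) in the IL-4 library, a ratio of 2.71 (1.28 to 6.00), and fell short of the rule in 3 of 13 alternatives. Site 2 (chr10:127058611-127058740) had 1 read and 10 reads, a ratio of 14.8 (2.10 to 640), and its RPM exceeded only 11.6% of all sites. Over the 9 alternatives that measured it, its ratio ran from 5.53 with fragments of 200 bp to 15.4. Within 5 kb of sites 1, 3, 4 and 5 the reads outside sites had ratios under 1. They were 0.665 (0.513 to 0.856), 0.665 (0.497 to 0.882), 0.735 (0.583 to 0.921) and 0.748 (0.591 to 0.942). Sites 4 and 5 share most of these reads, as their summits lie 1750 bp apart, and sites 3 and 4, 5920 bp apart, share part of them. The surroundings of site 1 reach outside the window, and the 10-kb tile from 127050001 inside it had a ratio of 0.887 (0.691 to 1.13). The 10-kb tile from 127070001, which overlaps the surroundings of sites 3, 4 and 5, had 183 and 85 reads. Its ratio was 0.685 (0.524 to 0.891), and 9.17% of all tiles of the genome had a lower one. With the level of these surrounding reads subtracted in each library, the ratio was 1.44 at site 1, 1.34 at site 3, 4.77 at site 4 and 2.02 at site 5. Each was higher than without the subtraction, as had to follow from surrounding ratios below those of the sites. No intervals were computed for these 4 ratios, and they rest on few reads.

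**Figure D4:**
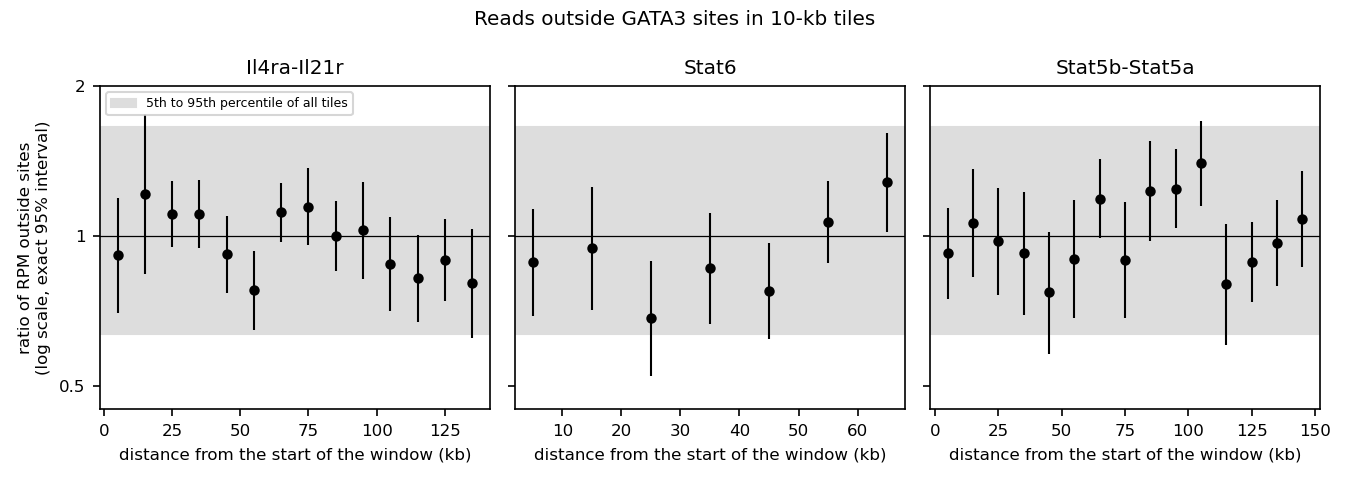
Ratio of RPM (IL-4 over NA, log axis) for reads outside sites in 10-kb tiles along the 3 windows, with exact 95% intervals, against the distance from the start of the window in kb. The grey band spans the 5th to the 95th percentile of all tiles of the genome. All 36 tiles lie in the band, with the lowest value, 0.685, in the Stat6 window and the highest, 1.40, in the Stat5b-Stat5a window.

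Of the 36 tiles, the interval lay over 1 in 3, beside 8.01% of all tiles, and under 1 in 3, beside 13.1%. The 3 under 1 were the Stat6 tiles from 127070001 and 127090001 and the Il4ra-Il21r tile from 132710001, with ratios of 0.685, 0.778 and 0.778. The 3 over 1 were the Stat6 tile from 127110001, at 1.28, and the Stat5b-Stat5a tiles from 100710001 and 100720001, at 1.25 and 1.40.

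In the Stat5b-Stat5a window lay the site whose interval had the highest lower bound of all 32. Site 2 (chr11:100651001-100651330) had 41 reads (1.79 RPM) in the NA library and 92 reads (5.91 RPM) in the IL-4 library, a ratio of 3.31 (2.27 to 4.91). It was the only site called in both libraries that passed the rule. The reads on the plus strand numbered 22 and 46 and those on the minus strand 19 and 46. At equal depth its summit was covered by 22 and 66 fragments, 13.9-fold and 27.6-fold the expected coverage. Reads outside sites within 5 kb were at a ratio of 0.887 (0.678 to 1.16), and the site stood 7.85-fold over them in one library and 29.3-fold in the other. In the 2 bins of 200 bp that cover the site the counts were 34 against 75 and 9 against 20, ratios of 3.26 and 3.28. The ratio of the site stayed over 2 under all 15 alternatives that measured it, from 2.48 to 3.79, and every interval recomputed lay over 1. No interval was computed with the surrounding reads subtracted.

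The strongest site of this window differed less between the libraries. Site 9 (chr11:100726921-100727380), the widest of the 32, had 118 reads (5.14 RPM) and 126 reads (8.10 RPM), a ratio of 1.58 (1.22 to 2.04). Site 4 (chr11:100679731-100679960) had 66 reads (2.87 RPM) and 48 reads (3.08 RPM), a ratio of 1.07 (0.724 to 1.58), and its neighbour site 5 (chr11:100681051-100681280) had 52 and 53, a ratio of 1.504 (1.01 to 2.25). The ratio at site 2 was 3.09 times that at site 4 (1.77 to 5.39) and 2.10 times that at site 9 (1.32 to 3.37).

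Site 3 (chr11:100675941-100676160), called in the IL-4 library alone, had 28 reads (1.22 RPM) and 39 reads (2.51 RPM), a ratio of 2.06 (1.23 to 3.47), and lay on the bound of the rule. It fell short of it in 5 of 15 alternatives, with a lowest ratio of 1.54, and its highest was 3.25 with the deeper library thinned before counting. Site 10 (chr11:100749741-100750020) had 34 and 39 reads, a ratio of 1.69 (1.04 to 2.76). The other 5 sites of the window, 1, 6, 7, 8 and 11, had 7 to 25 reads in one library and 7 to 26 in the other, with ratios from 0.861 to 2.07 and intervals that included 1. Of the reads in any of the 32 sites at least 77.1% had the top mapping quality in each library, the lowest value being that of Stat5b-Stat5a site 4 in the IL-4 library.

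**Figure D5:**
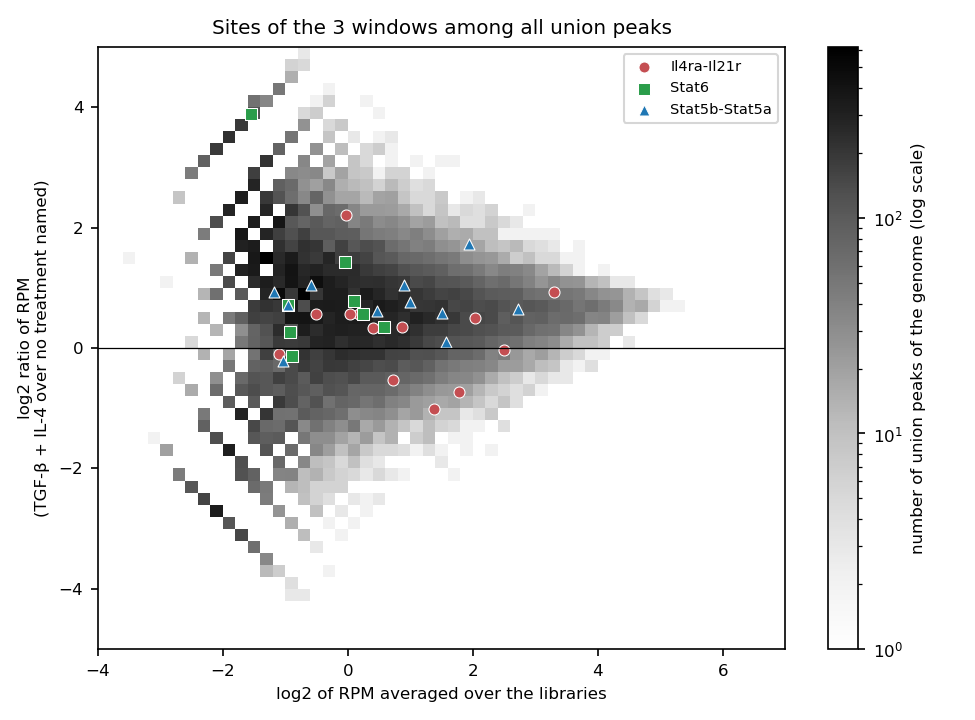
Log2 ratio of RPM (IL-4 over NA) against log2 of the mean RPM for the 32 sites (coloured by window) over the density of all sites of the genome that had reads in both libraries (grey, log scale). Il4ra-Il21r site 4 is the rightmost point, and Stat5b-Stat5a site 2 has a ratio above that of 85.2% of all sites.

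Bins of fixed position, which do not depend on where sites were called, were compared by the same size rule. Of 575 bins of 200 bp with at least 10 reads, 22 (3.83%) were higher, beside 5.4% of all such bins in the genome, and 9 (1.57%) were lower, beside 2.71%. Of these 31 bins 24 touched no site, but sites cover only 1.87% of the Il4ra-Il21r window, 1.94% of Stat6 and 1.58% of Stat5b-Stat5a. The share of all tested bins that touch no site was not counted, so the 24 do not show that differences favour such bins. The highest ratios in the Il4ra-Il21r window were 13.3 (1.84 to 582) from 132774201 with 1 and 9 reads, 5.90 (1.18 to 57.1) from 132668601 with 2 and 8, and 4.01 (1.61 to 11.3) from 132695601 with 7 and 19. In the Stat6 window they were 9.59 from 127058601, which covers site 2, 7.38 (1.57 to 69.3) from 127060601 with 2 and 10 reads, and 5.90 (1.59 to 32.6) from 127114001 with 3 and 12. In the Stat5b-Stat5a window they were 6.64 (1.37 to 63.2) from 100712001, 6.39 (1.76 to 35.0) from 100746201 and 5.90 (1.18 to 57.1) from 100723201, with 2 or 3 reads in the NA library and 8 to 13 in the IL-4 library. All of these outside sites rest on few reads, and only the bin from 132695601 had more than 15 in the IL-4 library. The lowest bins had 0 reads in the IL-4 library. The exact interval of the ratio reached up to 0.531 in the Stat6 bin from 127083801 (12 reads in the NA library), and up to 0.588 and 0.658 in the Il4ra-Il21r bins from 132799001 (11 reads) and 132758001 (10 reads). Bins with 11 reads and 1 read, a ratio of 0.134 (0.00312 to 0.923), began at 132694001, 132703601 and 132713801 in the Il4ra-Il21r window and at 100719401 in the Stat5b-Stat5a window. The other low Stat6 bin, from 127082401, had 20 and 4 reads, a ratio of 0.295 (0.0734 to 0.881).

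Calling and counting were also separated: 7780840 reads from either library served to call sites, and the rest served to count. That comparison was added after the data were seen. It gave 19 sites in the windows, 3 higher and 1 lower, where 14.7% and 1.66% of 36062 sites of the genome were. Stat5b-Stat5a site 2 had 18 and 35 reads there, a ratio of 3.79 (2.09 to 7.12), and site 3 had 17 and 19, a ratio of 2.18 (1.07 to 4.47). Il4ra-Il21r site 4 had a ratio of 1.58 (1.17 to 2.12), site 9 of 1.05 (0.639 to 1.69), site 8 of 0.606 (0.336 to 1.04), site 13 of 0.843 (0.55 to 1.27) and site 1 of 0.375 (0.113 to 0.993). Il4ra-Il21r site 11 kept 1 and 5 reads, a ratio of 9.76 (1.09 to 461). Stat6 site 4 was at 1.46 (0.419 to 4.81), no longer past the rule, and Stat6 site 2 was not called.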

How the data were processed

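Per the submitters' processing notes, CASAVA 1.0 and Bowtie2 were used and the build is mm9; their roles and settings are not given in the sources used here. The authors deposited 1 line per aligned read of 25 bp, and 0 reads shared position and strand, so a position counts at most once per strand, which compresses tall sites. Each deposited line carries a mapping quality score from 11 to 42. Chromosome coordinates in the deposited lines (start, end and length, other values than measurements) gave all read counts, made here.

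Reads were extended to the strand cross-correlation maximum (125 and 130 bp), and coverage at every 10 bp was tested genome-wide by a Poisson model whose expectation was the genome's mean or the local 10-kb mean, whichever was higher, at a Benjamini-Hochberg q of 0.01. The deeper library was thinned to the other's depth for calling. Gaps of up to 100 bp were merged, and sites needed 100 bp and 20% of reads on each strand. Overlap by 1 bp joined the libraries. Reads with a fragment centre (5′ end moved 63 bp inwards) in a site were counted, and ratios carry exact Clopper-Pearson 95% intervals. The intervals treat reads as independent and cover counting error only. The procedures were tested on simulated data.

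The rule for named items took the 5 strongest sites of each window, every site past the size rule, and per window the 3 highest and 3 lowest bins past it (ties included). The members and lists were chosen with earlier results of these data known. Other pathway genes, site sequences and proteins had been planned but were not analysed here, for want of an mm9 annotation, an mm9 genome and a protein table. Promoters came from RefSeq (GRCm38.p6, 5 of 5 genes matched). Python 3.11.15, numpy 2.4.6, scipy 1.17.1, pandas 2.3.3 and matplotlib 3.10.9 were used.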

Additional observations from a re-analysis of the deposited data

How the results depend on the processing

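No paired analysis was possible because there is 1 library per condition. The ratios of the 6 sites past the size rule stayed on their side of 1 under every alternative that measured them. These sites were chosen on the same reads for ratios far from 1, so this is no separate support for them. At a q of 1e-05, Il4ra-Il21r site 11 and Stat6 sites 2 and 4 were not called, so that setting did not measure them. Nor were Stat6 sites 2 and 4 called with a local rate over 5 kb, or Stat6 site 2 with separate reads. Stat6 site 2 also had no ratio with a centre shift of 100 bp, with the deeper library thinned before counting or with the surrounding reads subtracted. Of the other 26 sites, 9 crossed 1 under at least 1 alternative. Among these Il4ra-Il21r site 12 went to 0.632 with a local rate over 5 kb, Stat6 site 1 to 0.65 with separate reads, Stat6 site 8 to 1.48 with fragments of 200 bp and Stat5b-Stat5a site 4 to 0.805 with scaling to the median shared site. The 4 ratios of ratios recomputed (Il4ra-Il21r site 4 over sites 8 and 13, Stat5b-Stat5a site 2 over sites 4 and 9) kept an interval over 1 in all 14 settings each. Not all settings are checks: rescaling and the cut of 1.5 cannot change these values, and dropping the strand rule or asking for an enrichment of 5 left them the same. The lowest value was 1.70 (1.003 to 2.90), for Stat5b-Stat5a site 2 over site 9 with the deeper library thinned before counting. These 4 pairs were all among those whose interval, widened over all pairs, left out 1 in the same reads. Their intervals are thus no separate support for them. The ratio at Il4ra-Il21r site 9 over that at site 8 was not recomputed. The number of sites depended on the caller. At a q of 1e-05 there were 13 sites, 5 in the Il4ra-Il21r window, 1 in Stat6 and 7 in Stat5b-Stat5a, with 8 called in both libraries and 3 higher, and 11.7%, 36.8% and 6.01% of tiles had as many. Called in part of the reads, there were 19 (8, 4 and 7), with 7 in both libraries and 3 higher. With a local rate over 5 kb Stat6 had 4 sites, matched by 16.3% of tiles, and 2 sites were higher and 0 lower. The share of tiles matching the Il4ra-Il21r window was 2.83% with all reads, 1.88% with fragments of 200 bp and 10.8% with a minimum enrichment of 5. For Stat6 it was 6.16% with all reads and 6.18% with another thinning. The 1 lower site, Il4ra-Il21r site 1, also missed the bound with all reads, with scaling by reads outside sites and with the top mapping quality, leaving 0. Scaling by reads outside sites put the Il4ra-Il21r window at 1.07. Scaling to the median shared site gave 3 higher and 2 lower sites, 12 higher and 32 lower bins, and window ratios of 0.764 for Il4ra-Il21r, 0.739 for Stat6 and 0.835 for Stat5b-Stat5a. A ratio of 1.5 gave 9 higher and 2 lower sites. Bins with at least 20 reads gave 11 higher and 2 lower, and bins of 500 bp 15 lower. The causes of these shifts were not tested, apart from what each setting changes by construction. With all reads used for calling, 17 of 39 sites were called in both libraries, beside 13 of 32. Depth limits the weaker sites: intervals at sites under 30 reads per library span more than 2-fold. Some sites with more reads do so too, such as Stat5b-Stat5a site 4 (66 and 48 reads, 0.724 to 1.58).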
